A study of Homo sapiens with 6 samples.

Results

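The genes described here are 10 cytokine and chemokine genes measured in MRC5, an established human lung fibroblast line: *IL6*, *IL11*, *LIF*, *IL1B*, *IL33*, *CXCL8*, *CXCL1*, *CXCL12*, *CCL2* and *CSF1*. They were chosen by name, with earlier results of these data known. Each was found in the deposited count table through its GENCODE symbol, so they make up 10 of the 58676 gene identifiers listed. Of the 10, 9 had at least 10 counts summed over all libraries and were tested among 19072 genes. *IL33* had 3 counts in all and is listed as not measured.

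The comparison addresses what medium from RAS-activated epithelial cells changes in the fibroblast transcriptome. MRC5 cells were kept for 24 h in conditioned media (CM) from ATIIER:KRASV12 cells, an alveolar type II (ATII) epithelial line that carries an inducible KRASV12, which 4-hydroxytamoxifen (4-OHT) switches on. There were 3 libraries with CM from control ATIIER:KRASV12 cells (control CM) and 3 with CM from the same line after 24 h of 4-OHT (4-OHT CM). All 6 libraries come from a single fibroblast line and a single inducible epithelial line, so no donor or clone varies. The donor line carried the transgene in both groups, and a group of MRC5 cells given 4-OHT itself was not analysed here, so an effect of 4-OHT carried over with the CM and an effect of RAS-activated ATII cells cannot be told apart. The labels do not say whether the 3 libraries of a group are separate cultures, so p-values measure the spread between these libraries.

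Fibroblasts sit next to the alveolar epithelium and answer injury by secreting cytokines that call in and feed immune cells. *IL6*, *IL11* and *LIF* encode ligands that signal through the shared receptor subunit gp130 and the transcription factor STAT3. *IL1B* and *IL33* encode members of the interleukin-1 family. Chemokines direct migrating cells along a gradient: the products of *CXCL8* and *CXCL1* attract neutrophils, that of *CCL2* attracts monocytes, and that of *CXCL12* guides and retains progenitor cells and lymphocytes. *CSF1* encodes the growth factor that keeps macrophages alive. Many genes of this kind are switched on in fibroblasts by NF-kB and AP-1, and their mRNAs are often short-lived.

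Library totals lay between 17691849 and 26389449 counts, with a median of 22273931. Levels are given as CPM, counts relative to each library's total after edgeR's TMM scaling, and means carry the SD of 3 libraries. Log2 fold changes are 4-OHT CM over control CM, and a differentially expressed gene (DEG) has an adjusted p below 0.05 in edgeR's quasi-likelihood test over all 19072 genes. By that rule 5.72% of all genes tested were DEGs, 2.95% upregulated and 2.76% downregulated. All 8 fibroblast markers examined were abundant, with at least 7354 counts in every library, and 4 were DEGs, with log2 fold changes of 0.33 for *DCN*, 0.29 for *LUM*, 0.22 for *PDGFRA* and -0.10 for *VIM*. All 8 epithelial markers had 20 counts or fewer in every library, with *ESRP1* and *NKX2-1* at 0. The summed level of the epithelial markers was 0.794 to 1.41 CPM in control CM and 0.342 to 1.096 CPM in 4-OHT CM. Of 8 leukocyte and macrophage markers, 7 had 20 counts or fewer in every library, and the pan-leukocyte gene *PTPRC* had 2 counts in all. Their sum was 0.937 to 1.18 CPM in control CM and 1.19 to 2.09 CPM in 4-OHT CM, and *CD14* had 12 to 19 counts in the former and 23 to 49 in the latter (adjusted p = 0.0597 from edgeR). The part of these cells' RNA in the results below was not tested. Of 6 endothelial markers, *TEK* alone exceeded 20 counts in any library (2142 to 4504), while *PECAM1* and *CDH5* were at 0, and *TEK* was itself an upregulated DEG.

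Among the cytokine and chemokine genes, *CXCL12* rose in 4-OHT CM, and it was the only DEG among the 9 tested (11.1%, against 5.72% of all genes). The other 8 were not called in either direction. Of the 9, 6 had a higher and 3 a lower mean estimate, and the median log2 fold change was 0.098, where that of all genes tested was -0.0020. The 3 values of the groups lay apart for *CXCL12* and *CSF1*, 2 of 9 genes, and for 22.1% of all genes tested. In 6 of the 9 genes, *CXCL12* included, the 95% interval of the change stayed within 1.5-fold. It was wider for *CXCL8*, *CXCL1* and *IL1B*, the genes with the fewest counts.

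**Figure D1:**
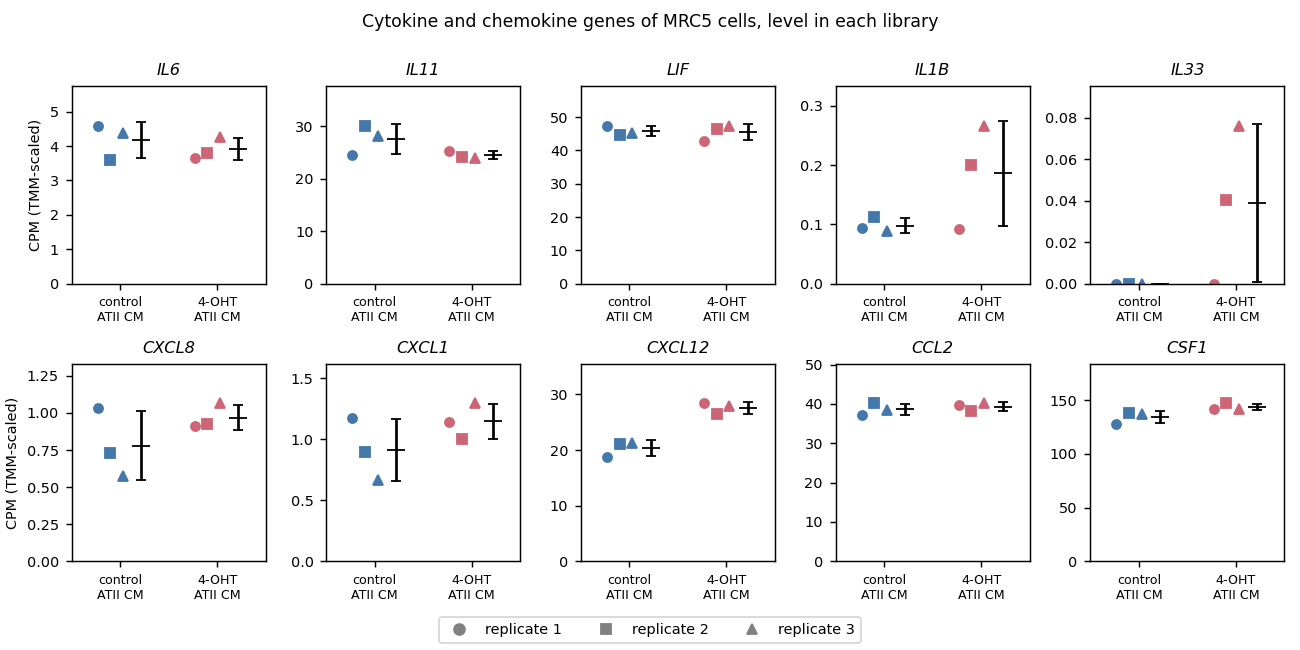
Level of each of the 10 cytokine and chemokine genes in each library, in CPM after TMM scaling, with symbols for replicate numbers and the mean ± SD (n = 3) in black; each panel has its own vertical axis starting at 0. The *CXCL12* libraries of 4-OHT CM sit between 26.4 and 28.4 CPM, all above those of control CM, while 7 of the other 8 genes tested have overlapping groups.

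Per kilobase of merged exons, the scale on which genes can be compared, *CSF1* had the highest level of the 10, at 25.7 CPM per kilobase over the 6 libraries (lowest 23.7, highest 27.2). *CCL2* followed with 19.6, *LIF* with 11.5 and *IL11* with 9.75 CPM per kilobase. *LIF* and *IL11* changed places in 1 library, control CM replicate 2, and their ranges overlapped, whereas every other neighbouring pair kept its order in all 6 libraries. *CXCL12* stood at 3.95 and *IL6* at 1.95 CPM per kilobase. *CXCL1* and *CXCL8*, at 0.793 and 0.384, were far below. The level of *CSF1* was 13.1 times that of *IL6* and 66.9 times that of *CXCL8* on this scale. *IL1B* closed the order of genes tested with 0.0459 CPM per kilobase. In CPM, *CSF1* made up 49.2% of the 10 genes' sum in control CM and 50.1% in 4-OHT CM.

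**Figure D2:**
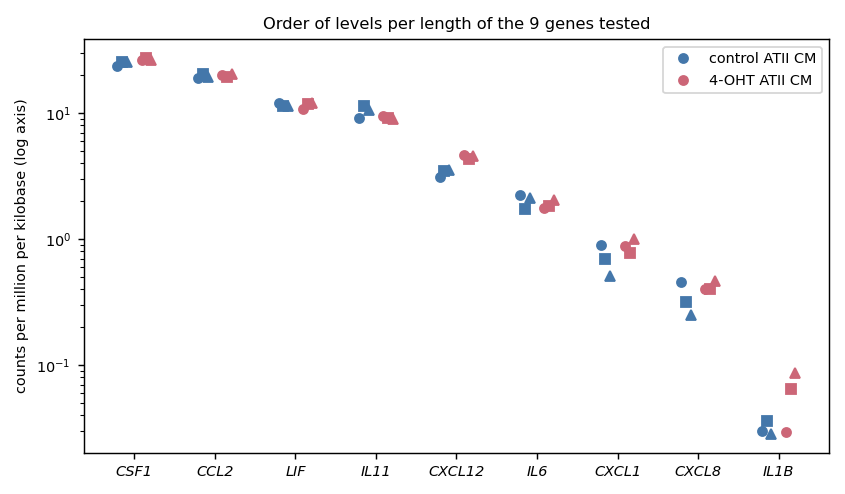
Levels of the 9 genes tested in CPM per kilobase of merged exons, on a log axis, in the order of their mean; each symbol is a library, blue for control CM and red for 4-OHT CM. The levels run from 25.7 for *CSF1* to 0.0459 for *IL1B*, and the only neighbours whose ranges overlap are *LIF* and *IL11*.

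Of the gp130 ligands, none was a DEG. *LIF* (ENSG00000128342, GRCh38 chromosome 22, 30240447 to 30246851, minus strand) encodes leukemia inhibitory factor. Its counts of 1012, 799 and 1025 in control CM and 936, 1156 and 1242 in 4-OHT CM correspond to 47.4, 44.7 and 45.2 CPM and to 42.8, 46.4 and 47.3 CPM. The groups overlapped throughout, with means of 45.8 ± 1.42 and 45.5 ± 2.38 CPM (SD, n = 3). The log2 fold change was -0.0095 (95% interval -0.11 to 0.093, adjusted p = 0.951 from edgeR), which leaves room for a change of at most 1.07-fold upward and, downward, to 0.925 of the control level.

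*IL11* (ENSG00000095752, chromosome 19, 55364389 to 55370463, minus strand) encodes a gp130 ligand tied to fibroblast activation. It stood at 24.6, 30.1 and 28.1 CPM in control CM and at 25.3, 24.2 and 24.0 CPM in 4-OHT CM. Replicate 1 of control CM lay among the libraries of 4-OHT CM, and the other two controls lay above all of them. The means were 27.6 ± 2.82 and 24.5 ± 0.735 CPM (SD, n = 3), a log2 fold change of -0.17 (standard error, SE, 0.0695, 95% interval -0.32 to -0.021, adjusted p = 0.209 from edgeR). Without control CM replicate 1, *IL11* passed the threshold as a downregulated gene, with a log2 fold change of -0.25 (adjusted p = 0.0450 from edgeR, against 0.0450 to 0.448 over all 15 alternatives). The call thus depended on that library, and without control CM replicate 2 the log2 fold change was -0.11.

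*IL6* (ENSG00000136244, chromosome 7, 22725884 to 22732002, plus strand), which encodes the classical acute-phase cytokine, was sparse in both groups. Its libraries held 98, 64 and 99 counts in control CM and 80, 95 and 112 counts in 4-OHT CM. In CPM these were 4.59, 3.58 and 4.37, against 3.65, 3.81 and 4.26, with no separation of the groups. The log2 fold change was -0.10 (95% interval -0.40 to 0.20, adjusted p = 0.789 from edgeR), and it was -0.032 without control CM replicate 1 and -0.19 without control CM replicate 2. Exons of *IL6* overlap those of *IL6-AS1* and *STEAP1B* on the opposite strand, and exons of *LIF* overlap *LIF-AS1* and *LIF-AS2*. The library kit is not stated to keep the strand, so reads of such partners cannot be told apart. *STEAP1B* had 46 to 73 counts per library, close to the 64 to 112 of *IL6*, while *IL6-AS1* had 3 to 9 and *LIF-AS2* 20 to 34.

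The interleukin-1 family genes were close to the limit of detection. *IL1B* (ENSG00000125538, chromosome 2, 112829751 to 112836903, minus strand), which encodes the inflammatory cytokine that is released after cleavage, had 2 counts in each library of control CM and 2, 5 and 7 counts in 4-OHT CM. Replicate 1 of 4-OHT CM did not exceed the controls. From 6 and 14 counts in all, the ratio of 4-OHT to control CM was 1.97 with an exact 95% counting interval of 0.710 to 6.24, which covers counting error only, and edgeR gave an adjusted p of 0.554. *IL33* (ENSG00000137033, chromosome 9, 6215786 to 6257983, plus strand), whose product is an alarmin stored in the nucleus, had 0 counts in 4 libraries and 1 and 2 counts in replicates 2 and 3 of 4-OHT CM. No library exceeded a floor of 3 counts, so no fold is given.

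*CXCL12* (ENSG00000107562, chromosome 10, 44370165 to 44386493, minus strand) encodes stromal cell-derived factor 1. It had 400, 378 and 482 counts in control CM and 622, 659 and 735 counts in 4-OHT CM, or 18.7, 21.2 and 21.3 CPM against 28.4, 26.4 and 28.0 CPM. Every library of 4-OHT CM stood above every control, and the smallest gap between the groups was larger than the spread within either. The means were 20.4 ± 1.43 and 27.6 ± 1.04 CPM (SD, n = 3), a 1.35-fold rise, and in bulk RNA more expressing cells and more RNA per cell cannot be told apart. The log2 fold change was 0.44 (SE 0.0646, 95% interval 0.30 to 0.57, adjusted p = 0.000672 from edgeR). It stayed a DEG in all 15 alternatives, with log2 fold changes from 0.38 to 0.47 and adjusted p from 3.9e-09 to 0.00583. Among the 563 upregulated DEGs it ranked 94th by p and 67th by fold. Counts were made per gene, so the isoforms of *CXCL12* are not separated.

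The neutrophil chemokine genes *CXCL8* (ENSG00000169429, chromosome 4, 73740506 to 73743716) and *CXCL1* (ENSG00000163739, chromosome 4, 73869393 to 73871242), both on the plus strand, were barely expressed. *CXCL8* had 22, 13 and 13 counts in control CM and 20, 23 and 28 in 4-OHT CM. *CXCL1* had 25, 16 and 15 counts in control CM and 25, 25 and 34 in 4-OHT CM. In both genes control CM replicate 1 was as high as libraries of 4-OHT CM, so the groups overlapped. The counts of *CXCL8* were 0.80 to 0.92 of those of *CXCL1* in each of the 6 libraries, so that both genes were high and low in the same libraries. The log2 fold change was 0.32 for *CXCL8* (95% interval -0.29 to 0.92, adjusted p = 0.638 from edgeR) and 0.34 for *CXCL1* (95% interval -0.24 to 0.91, adjusted p = 0.588). Without control CM replicate 1 the values were 0.58 for *CXCL8* and 0.57 for *CXCL1*, and without control CM replicate 3 they were 0.12 and 0.13. The intervals over all libraries include the estimate for *CXCL12*, and at this depth a change of that size in *CXCL8* or *CXCL1* was not detectable. The closest other transcript to *CXCL1*, from *CXCL2*, covers 86.6% of it at 89.9% identity, so some reads may be shared, and none of the other genes of the set had a comparable copy.

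*CCL2* (ENSG00000108691, chromosome 17, 34255218 to 34257203, plus strand), which encodes monocyte chemoattractant protein, was well expressed and steady. Its libraries stood at 37.3, 40.1 and 38.4 CPM in control CM and at 39.8, 38.1 and 40.2 CPM in 4-OHT CM. The groups overlapped, with means of 38.6 ± 1.44 and 39.4 ± 1.11 CPM (SD, n = 3). The log2 fold change was 0.028 (95% interval -0.073 to 0.13, adjusted p = 0.832 from edgeR), so the interval reaches 1.09-fold upward and 0.951 of the control level downward.

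*CSF1* (ENSG00000184371, chromosome 1, 109910242 to 109930992, plus strand) was the most abundant of the 10 genes, and its product supports macrophages. It stood at 128, 138 and 137 CPM in control CM and at 142, 147 and 142 CPM in 4-OHT CM. All 3 libraries of 4-OHT CM lay above the controls, by a margin smaller than the spread within the control group. The means were 134 ± 5.37 and 144 ± 3.08 CPM (SD, n = 3), a log2 fold change of 0.098 (SE 0.0388, 95% interval 0.016 to 0.18, adjusted p = 0.185 from edgeR). *CSF1* was a DEG in none of the 15 alternatives, whose adjusted p ran from 0.0603, without control CM replicate 2, to 0.497. *CSF1R*, the gene of its receptor, had 1 to 13 counts per library.

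**Figure D3:**
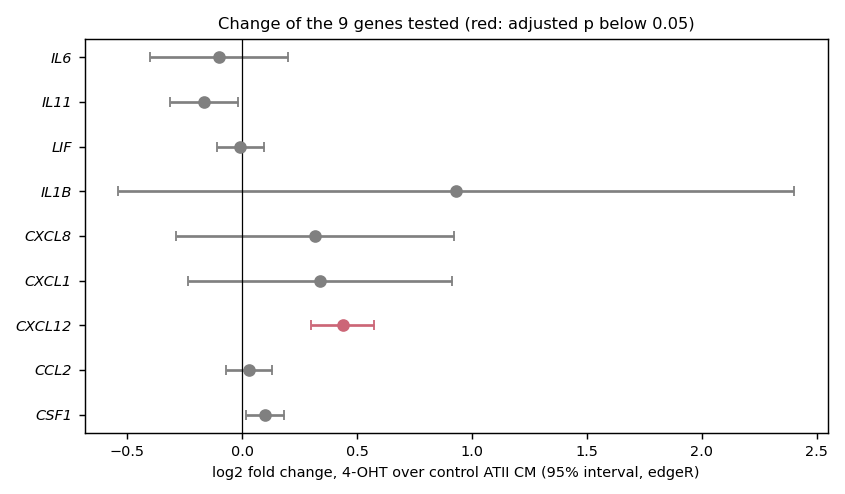
Log2 fold change of the 9 genes tested, 4-OHT over control CM, with 95% intervals from edgeR; the red point is the DEG and grey points are genes with an adjusted p of 0.05 or more. *CXCL12*, at 0.44 with an interval from 0.30 to 0.57, is the only gene called, and the intervals of *IL1B*, *CXCL8* and *CXCL1* are the widest.

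Counts of *CXCL12* set against those of another gene in the same library do not depend on the scaling between libraries. Per 100 counts of *CCL2*, there were 50.3, 52.7 and 55.3 counts of *CXCL12* in control CM and 71.4, 69.4 and 69.6 in 4-OHT CM. Per 100 counts of *CSF1*, the means were 15.2 ± 0.479 and 19.2 ± 1.12 (SD, n = 3). Per 100 counts of *LIF* they were 44.6 ± 4.41 and 60.9 ± 4.95, and per 100 counts of *IL11* 74.1 ± 3.33 and 113 ± 3.81. In all 4 ratios every library of 4-OHT CM lay above every control, and a two-sided exact permutation test gave p = 0.1 for each, which is as low as 3 libraries against 3 can go. The ratio of *IL11* to *CCL2* did not overlap either, and was lower in 4-OHT CM, with 71.3 ± 4.86 and 62.3 ± 2.30 counts per 100 (exact permutation p = 0.1). The ratios of *CSF1*, *LIF* and *IL6* to *CCL2* overlapped between groups (exact permutation p = 0.3, 0.7 and 0.5). There were 8 such ratios, and none fell below an adjusted p of 0.16. Summed over the 10 genes, the level was 273 ± 8.56 CPM in control CM and 287 ± 2.62 CPM in 4-OHT CM, 5.21% higher, and without *CXCL12* it was 252 ± 7.19 and 259 ± 3.40 CPM.

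**Figure D4:**
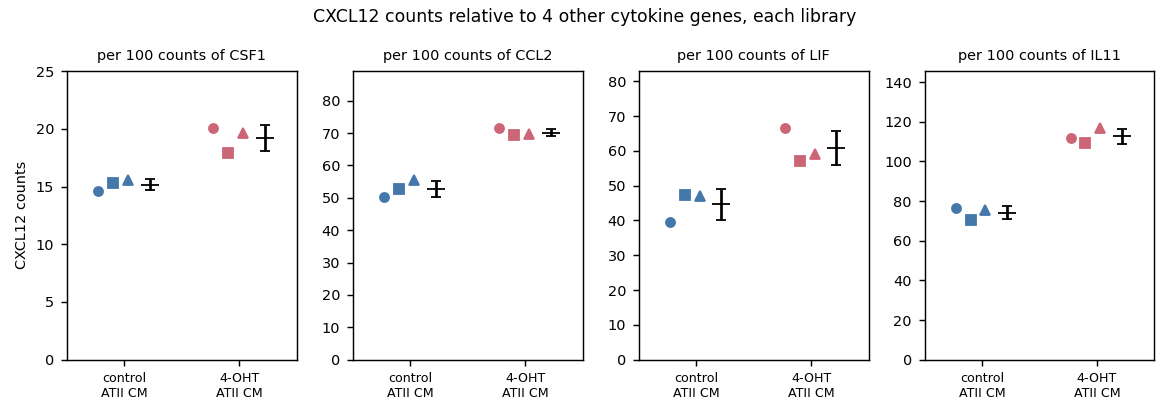
Counts of *CXCL12* per 100 counts of *CSF1*, *CCL2*, *LIF* and *IL11* in each library, with symbols for replicate numbers as in the plot of levels by library, and the mean ± SD (n = 3) in black; the axes start at 0. In each panel the 3 libraries of 4-OHT CM sit above the 3 of control CM, as with 71.4, 69.4 and 69.6 per 100 counts of *CCL2* against 50.3 to 55.3.

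The stretches upstream of a RefSeq start site are shown for the gene that rose, *CXCL12*, and for the genes of NF-kB-driven inflammation that were not called, *CXCL8*, *CXCL1* and *IL6*. The stretches of *CXCL12* and *IL6* lie within the gene spans given above, so the counted genes also reach further upstream. RefSeq promoters on GRCh38.p14 were at hand for 7 of the 10 genes, all but *LIF*, *CCL2* and *CSF1*, and the 250 bases before each start were searched on both strands. Capitals mark the NF-kB motif (9.96% of 35116 promoters hold it), the AP-1 motif TGANTCA (6.57% of promoters) and the longest run shared by *CXCL8* and *CXCL1*. All 4 are written 5′ to 3′ on the strand of the gene, at chr10:44385098-44385347 (minus strand), chr4:73740319-73740568, chr4:73869143-73869392 and chr7:22726950-22727199 (plus strand).
CXCL12: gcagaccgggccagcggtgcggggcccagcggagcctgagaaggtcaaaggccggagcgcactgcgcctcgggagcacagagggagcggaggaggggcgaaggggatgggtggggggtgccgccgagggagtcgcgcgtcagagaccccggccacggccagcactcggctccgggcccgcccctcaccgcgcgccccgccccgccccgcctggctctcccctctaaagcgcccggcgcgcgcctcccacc
CXCL8: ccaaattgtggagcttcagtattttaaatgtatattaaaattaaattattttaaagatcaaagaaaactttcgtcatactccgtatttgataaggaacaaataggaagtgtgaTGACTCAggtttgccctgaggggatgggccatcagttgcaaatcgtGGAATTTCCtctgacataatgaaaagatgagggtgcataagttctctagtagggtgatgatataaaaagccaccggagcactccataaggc
CXCL1: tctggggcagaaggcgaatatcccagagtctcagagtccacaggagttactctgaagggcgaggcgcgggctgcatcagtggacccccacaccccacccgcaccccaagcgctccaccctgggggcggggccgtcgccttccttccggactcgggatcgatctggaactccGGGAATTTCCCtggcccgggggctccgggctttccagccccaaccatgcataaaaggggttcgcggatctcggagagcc
IL6: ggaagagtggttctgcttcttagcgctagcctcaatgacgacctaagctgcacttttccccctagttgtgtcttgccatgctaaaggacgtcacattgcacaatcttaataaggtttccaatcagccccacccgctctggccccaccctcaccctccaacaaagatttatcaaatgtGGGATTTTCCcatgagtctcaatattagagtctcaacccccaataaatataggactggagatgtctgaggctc

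The *CXCL12* stretch held none of these motifs and was rich in G and C, at 78.0% against a median of 58.0% for all promoters. The stretches of *IL1B* and *IL33*, not printed, likewise held no NF-kB or AP-1 motif, and that of *IL11* held no NF-kB motif. G and C made up 67.2% for *IL11* and 65.6% for *CXCL1*, neither of them called, and 37.6% to 47.6% for *CXCL8*, *IL6*, *IL1B* and *IL33*. *CXCL1* held the NF-kB motif as GGGAATTTCC from base -79 and *IL6* held it as GGGATTTTCC from base -73, counted from the base before the start. *CXCL8* held the AP-1 motif as TGACTCA from base -137. Its stretch shares the run GGAATTTCC with *CXCL1*, which 0.413% of all promoters hold and which departs from the NF-kB motif searched by its first letter. The *IL11* promoter, not printed, held the AP-1 motif as TGAGTCA from base -96, and the C/EBP motif, found in 33.2% of promoters, was in those of *IL6* and *IL1B*. A motif match is a description of these letters and does not show binding, and its absence says only that the letters are not in the window.

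Genes for the receptors of these ligands were next examined. This list and those that follow were chosen with earlier results of these data known, so their shares of DEGs are descriptions and not independent tests. Of 15 receptor genes, 10 passed the count filter, 4 were upregulated DEGs and none was downregulated (against 5.72% of all genes), and the median log2 fold change was 0.15. *IL1R1*, the signaling receptor for interleukin-1, rose from 208, 194 and 203 CPM in control CM to 274, 273 and 271 CPM in 4-OHT CM, with no overlap. Its log2 fold change of 0.43 (SE 0.0345, adjusted p = 3.15e-06 from edgeR) was close to that of *CXCL12*. *IL6R*, which binds interleukin-6, rose from 31.3 ± 1.73 to 39.2 ± 1.51 CPM (SD, n = 3), a log2 fold change of 0.32 (adjusted p = 0.00181). *IL6ST*, which encodes gp130, rose from 1053 ± 47.6 to 1171 ± 12.7 CPM (log2 fold change 0.15, adjusted p = 0.00924) and was lost as a DEG without 4-OHT CM replicate 3 (adjusted p = 0.0564, the highest of its alternatives, whose lowest was 2.55e-05). *OSMR*, the oncostatin M partner of gp130, had a log2 fold change of 0.14 (adjusted p = 0.0369) and was a DEG in 10 of its 15 alternatives. Without 4-OHT CM replicate 3 the list held 2 DEGs in place of 4.

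The ligand-specific partners of the other gp130 cytokines were not called. *LIFR* stood at 115 ± 6.49 and 117 ± 4.07 CPM (SD, n = 3), and *IL11RA*, whose exons overlap *GALT* and *CCL27*, at 15.2 ± 1.40 and 13.4 ± 1.26 CPM (adjusted p = 0.274 from edgeR). Of the receptors for *CXCL12*, *CXCR4* had 0 counts in all libraries, which allows a level of up to 0.0222 CPM over the 135093001 counts summed. *ACKR3*, the scavenging receptor, was at 9.70, 9.85 and 8.96 CPM in control CM and 10.8, 11.8 and 11.1 CPM in 4-OHT CM. The groups lay apart, but its log2 fold change of 0.25 did not pass the threshold (95% interval 0.064 to 0.43, adjusted p = 0.123). *CXCR1* and *CCR2* were also at 0, and *CXCR2* had 2 counts in all, so the receptors for the products of *CXCL8*, *CXCL1* and *CCL2* were not detectable at this depth.

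Among 30 other cytokine and chemokine genes, 19 passed the count filter and none was a DEG (against 5.72% of all genes), with 10 higher, 9 lower and a median log2 fold change of 0.065. By DESeq2 and limma-voom the number was also 0, and 2 genes, *CXCL10* and *IL32*, had an unadjusted p below 0.05 in edgeR. The most abundant were *TSLP*, which encodes an epithelial-type alarmin cytokine, at 27.8 ± 2.67 and 27.8 ± 2.17 CPM, *CLCF1*, a further gp130 ligand, at 17.1 ± 0.856 and 16.0 ± 0.543 CPM, and *IL32* at 14.3 ± 0.482 and 12.4 ± 1.46 CPM (SD, n = 3 each). *CCL5*, *TNF*, *CSF3*, *OSM* and *MIF* were listed at 0 in all libraries. *MIF* is made by most cells and its exons overlap a second gene on the same strand, so its 0 is not read as absence.

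Of the NF-kB subunits and response genes, 23 were tested, of which 2 were upregulated and 1 was a downregulated DEG (13.0% against 5.72% of all genes), and the median log2 fold change was 0.049. *IRF1*, an interferon-response factor, rose from 53.0 ± 1.71 to 64.2 ± 2.82 CPM (log2 fold change 0.28, adjusted p = 0.00110 from edgeR), and *VCAM1*, a leukocyte adhesion molecule, from 77.4 ± 3.87 to 91.9 ± 3.60 CPM (log2 fold change 0.25, adjusted p = 0.00325). *PTX3*, a secreted pattern-recognition protein, fell from 212, 208 and 209 CPM to 171, 166 and 169 CPM, a log2 fold change of -0.31 (SE 0.0331, adjusted p = 4.35e-05). The abundant *RELA*, which encodes the p65 subunit, stood at 96.2 ± 2.45 and 94.5 ± 0.752 CPM, and *BIRC2* at 99.1 ± 6.68 and 92.7 ± 2.20 CPM, neither of them called.

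Another list held genes taken as answering gp130 and STAT3, and it was chosen with earlier results of these data known. Whether each of its genes, *FGL2* included, answers gp130 in these cells was not tested, so its share of DEGs is a description. Of 20, 18 were tested, 6 were upregulated DEGs and none was downregulated (33.3% against 5.72% of all genes), 15 had a higher and 3 a lower estimate, and the median log2 fold change was 0.14. *SOCS3*, the feedback inhibitor of gp130 signaling, stood at 91.7, 93.8 and 87.6 CPM in control CM and at 116, 113 and 112 CPM in 4-OHT CM, a log2 fold change of 0.32 (SE 0.0385, adjusted p = 0.000135 from edgeR). *FGL2*, a secreted fibrinogen-like protein, rose from 117 ± 9.72 to 168 ± 5.72 CPM (log2 fold change 0.52, adjusted p = 2.24e-05), and *CEBPD*, a C/EBP transcription factor, from 176 ± 9.71 to 209 ± 3.44 CPM (log2 fold change 0.25, adjusted p = 0.00128). *STAT3* itself had a log2 fold change of 0.15 (adjusted p = 0.0118) and was a DEG in 12 of its 15 alternatives, whose adjusted p reached 0.0875. *CEBPB* had 0.13 (adjusted p = 0.0377) and was a DEG in 8 of 15, with an adjusted p of up to 0.182. *OSMR* belongs to both lists. The most abundant of the others were *TIMP1*, *HIF1A* and *MCL1*, with log2 fold changes of 0.019, 0.089 and 0.057, none of them called. Without 4-OHT CM replicate 2, or without replicate 3, the list held 3 DEGs in place of 6.

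**Figure D5:**
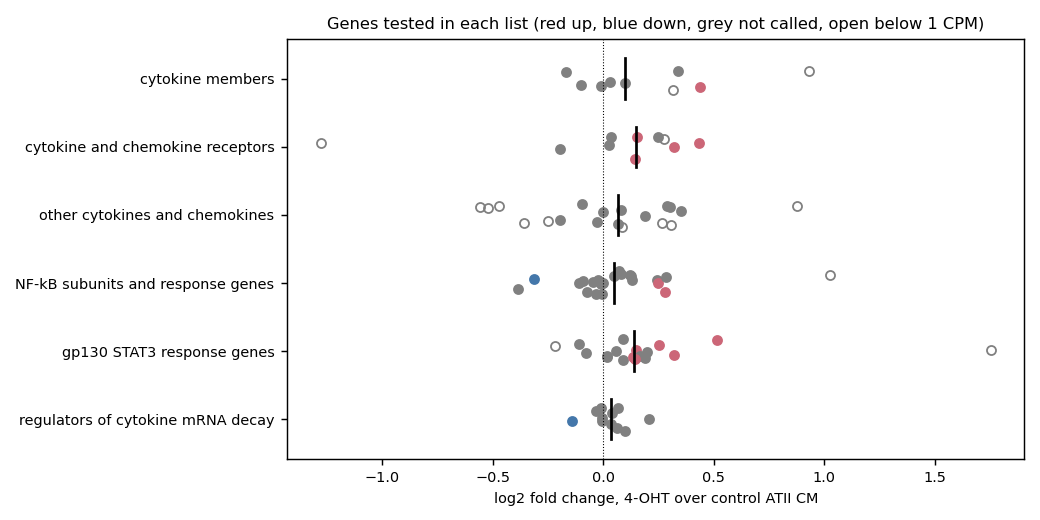
Log2 fold change of every gene tested in the 10 cytokine and chemokine genes and in 5 related lists, 4-OHT over control CM; filled points have a mean of at least 1 CPM and open ones less, black bars are list medians, and the dotted line is the median of all genes (-0.0020). Upregulated DEGs are red, downregulated ones blue, and genes not called grey. DEGs number 1 of 9 among the 10 genes, 4 of 10 tested receptors and 6 of 18 gp130 and STAT3 response genes, all red. They number 3 of 23 NF-kB genes (2 red and 1 blue), 1 of 11 regulators of mRNA decay (blue) and 0 of 19 other cytokines and chemokines. Among all genes the share is 5.72%.

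Of 11 regulators of cytokine mRNA decay, *HNRNPD*, which encodes the AU-rich element binding protein AUF1, was the only DEG (9.09% of the list, against 5.72% of all genes). It was at 263 ± 6.97 CPM in control CM and 238 ± 2.72 CPM in 4-OHT CM (SD, n = 3), a log2 fold change of -0.14 (adjusted p = 0.0181 from edgeR), and was not called when any of control CM replicate 1 and 4-OHT CM replicates 1, 2 and 3 was left out (adjusted p = 0.0759, 0.0788, 0.0901 and 0.0615). *ZFP36*, which encodes the decay factor tristetraprolin, sat near the threshold, at 35.0 ± 2.76 and 40.5 ± 2.22 CPM (log2 fold change 0.21, adjusted p = 0.0532, from 0.00156 to 0.238 over its alternatives). The abundant *ZFP36L1* and *KHSRP* had log2 fold changes of 0.065 and -0.0040 and were not called. The median of the list was 0.033.

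Over the 6 libraries, the genes whose log2 CPM followed that of *CXCL12* most closely among 9201 genes with a mean of at least 10 CPM were *NDFIP1*, *CEBPD* and *H3-3B*, each with a Pearson correlation of 0.99. These points share their libraries, their depth and the difference between groups. The log2 fold changes were 0.15 for *NDFIP1*, 0.25 for *CEBPD* and 0.017 for *H3-3B*, all smaller than that of *CXCL12*.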

How the data were processed

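RNA-Seq was done on 6 libraries of MRC5 cells. Per the submitters' processing notes, the authors used Trim Galore, then HISAT2 2.1.0 on GRCh38 and featureCounts 1.6.5, and deposited raw counts per gene, not normalized, together with each gene's merged exon length. The strand setting and the treatment of multi-mapped reads are not given in the sources used here. For 45 identifiers with an X and a Y line, counts were added. Symbols came from GENCODE release 44, and 1 symbol of the gene lists, *SOD2*, was not matched.

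Genes with at least 10 summed counts were tested with edgeR 4.0.16 (R 4.3.3; TMM, quasi-likelihood, group as the only term, Benjamini-Hochberg over 19072 genes), where the study used DESeq2. DESeq2 1.42.0, limma-voom (limma 3.58.1), other scalings, count filters, a replicate block, thinning and each library left out in turn were alternatives. Standard errors were derived from the fold change and F statistic. Near-identical copies were sought with minimap2 2.31.

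The 10 genes and the lists were chosen with earlier results of these data known. Outside the lists' rule (DEGs, at most 6, and the 3 most abundant genes), partner receptors and *ZFP36* were named after their values were seen. Replicates differed by more than counting noise (chi-square per degree of freedom 2.12 to 6.03). Of 28 genes named from the other lists, 17 have exons that overlap another gene. Among them are the DEGs *IL1R1*, *IL6ST*, *OSMR*, *IRF1*, *PTX3*, *CEBPB* and *HNRNPD*, and reads of the overlapping genes were not told apart.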

Additional observations from a re-analysis of the deposited data

How the results depend on the processing

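Of the 134 values of the 9 genes tested under the alternatives, 130 kept their direction and, where an adjusted p was given, their side of the threshold. DESeq2 gave none for *IL1B*, *CXCL8* and *CXCL1*, so those values bear on direction only. *CXCL12* kept both in all 15. *LIF*, with an estimate near 0, turned to 0.011 after thinning and to 0.014 without control CM replicate 1 and 0.036 without 4-OHT CM replicate 1 (from -0.042 to 0.036 over libraries left out). Leaving out each library in turn, the number of DEGs among all genes ranged from 533 (without 4-OHT CM replicate 2) to 1530, with 615 and 663 without 4-OHT CM replicate 3 and control CM replicate 3, among the 10 genes from 1 to 2, among receptors from 2 to 4, among gp130 and STAT3 response genes from 3 to 6, and among regulators of mRNA decay from 0 to 2. The last number was 2, with *ZFP36* added, with RLE size factors, upper-quartile factors, filterByExpr or no count filter. Without a count filter there were 1601 DEGs. Changes of direction were also seen in genes near 0 that were called in no setting. *TSLP* had 0.0068 with no count filter, 0.0039 with the replicate block and 0.013 after thinning, and -0.074 to 0.060 with a library left out. *KHSRP* had 0.0049 with no count filter and -0.025 to 0.019 with a library left out. With a library left out, *LIFR* ran from -0.016 to 0.059, *IL1RAP* from -0.067 to 0.11 and *TIMP1* from -0.0087 to 0.047. The cause of these shifts was not tested. Libraries with the same replicate number did not deviate together (correlations of -0.019, -0.12 and -0.11). The deviations were taken from each group's own mean, which constrains these correlations, so they do not settle whether the numbers pair libraries. With the replicate block there were 985 DEGs, 1 of the 10 genes among them, and *CEBPB* was lost (adjusted p = 0.0553 from edgeR). Low counts, at most 34 in any library, limit *CXCL8*, *CXCL1* and *IL1B*. No result met the criteria for a closer look.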
